A study of Mus musculus with 24 samples.

Results

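The 6 *MMTV-PyMT* tumors of the series, from mice treated with the anti-pleiotrophin antibody 3B10 or the control antibody C44, are described across all genes of the table. They were chosen by their labels, 3 tumors with each antibody, out of 24 samples in the series. Of the 12091 genes in the table, 11361 were expressed highly enough to be tested. All 6 tumors were mammary tumors of FVB/N mice that carry the *MMTV-PyMT* transgene. By the authors' account, both groups received antibody at 15 mg/kg with 2 doses per week, from 8 to 12 wk of age. The labels set the groups apart by the antibody alone. The study asked which transcripts differ in tumors when pleiotrophin is blocked.

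Pleiotrophin (PTN) is a small heparin-binding growth factor that is secreted and held on heparan and chondroitin sulfate chains. It shares its fold and many binding partners with midkine, and it is known as a ligand of the receptor phosphatase PTPRZ1, of syndecans, of nucleolin and of integrins. An antibody against the protein acts outside the cell, so the Ptn transcript itself is not its target. In the *MMTV-PyMT* model the mouse mammary tumor virus promoter drives polyoma middle T antigen in the mammary epithelium, and several glands of the same animal form tumors that pass from hyperplasia to carcinoma. The transgene was not analysed here, and the labels do not say which tumors came from littermates or which gland was taken. Each group holds only 3 tumors, and each tumor is a piece of tissue with epithelium, stroma, vessels and blood.

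The values are log2 counts per M reads on genes (log2 CPM), where M is mega, and they are given below for tumors 1, 2 and 3 of each group in that order. Libraries of C44 tumors held 19.18, 19.25 and 18.76 M reads, and those of 3B10 tumors held 16.29, 18.44 and 16.26 M. Every C44 library was therefore larger than every 3B10 library. In a principal component analysis over the genes tested, PC1 held 35% of the variance and PC2 held 24.2%. Tumor 3B10 3 stood at 41.9 on PC1 and C44 3 at 17, whereas the other 4 tumors lay between −22.8 and −9.3. These same tumors were far apart on PC2, with C44 3 at −37.2 and 3B10 3 at 21. PC3 held 18.7% and set C44 1, at 32, apart from the rest. No component among these separated the antibodies. By a count over genes, 3B10 3 was more than 1 log2 unit away from the median of the other tumors in 709 genes (6.24%) and C44 3 in 537 genes (4.73%), while this number was 266 to 336 in the other tumors. For many genes and lists where leaving out a tumor moves the value strongly, the value without it is given. This was not done for every gene, so a fold change printed alone is not thereby stable.

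**Figure D1:**
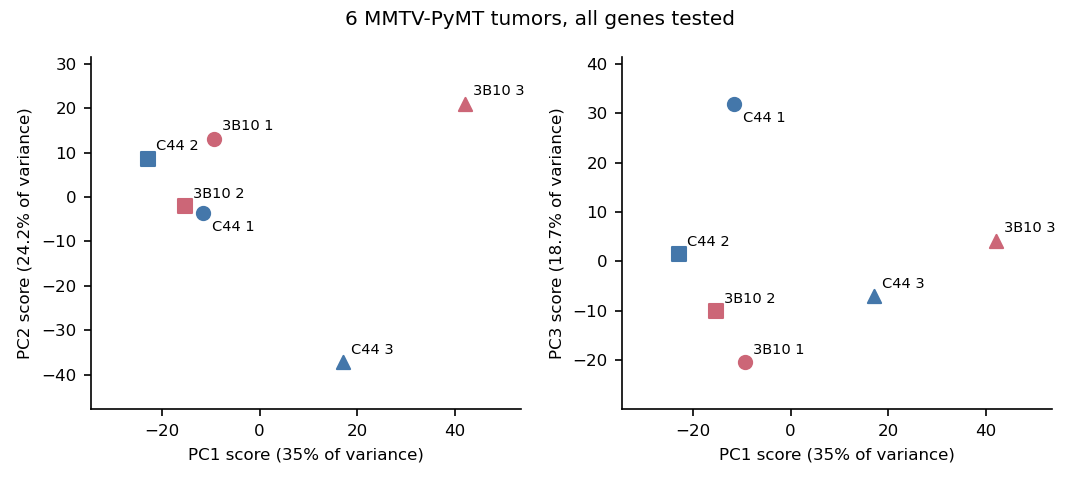
Scores of the 6 tumors on the principal components of the log2 CPM of 11361 genes. Blue marks C44 and red marks 3B10; the symbol gives the tumor number. Axis labels give the share of variance.

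The tissue label was checked with markers of mammary epithelium. Of 21 luminal genes in the list, 18 were in the table and tested, and together they made up 10043, 9126 and 7905 CPM in the C44 tumors and 8348, 8858 and 7789 CPM in the 3B10 tumors. The keratin Krt8 was the most abundant of them per length, at a mean of 724 reads per kb and M reads (RPKM), and the adhesion molecule Epcam stood at 527. Luminal genes were thus high in all 6 tumors. Their median log2 fold change with 3B10 was −0.06, against 0.05 over all genes tested, and it ranged from −0.16 without C44 3 to 0.01 without C44 1. Esr1, Pgr and Foxa1, members that mark hormone-sensing luminal cells, are not in the table. The kappa casein gene Csn3 was among the most abundant transcripts, with 12.96, 13.09 and 13.95 log2 CPM in the C44 tumors and 12.73, 13.45 and 12.66 in the 3B10 tumors, where C44 3 is the highest.

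Over all genes tested, the adjusted p from limma was under 0.05 for 0 genes (0%), and the smallest adjusted p was 1. Each gene named in the following paragraphs therefore has an adjusted p of 1 in this comparison, and its values describe the tumors without a call. At an unadjusted p under 0.05 there were 134 lower genes (1.18%) and 173 higher genes (1.52%) with 3B10. Together they are fewer than this threshold passes on average when no gene differs. Of them, 43.6% were lower. This share depends on the scaling between libraries. It became 63.9% with median-of-ratios scaling (186 lower and 105 higher) and 55.7% with quantile normalization (156 lower and 124 higher). The groups did not overlap, with all 3B10 tumors below all C44 tumors, in 258 genes (2.27%), and with all of them above in 689 genes (6.06%). These numbers were 350 (3.08%) and 469 (4.13%) with quantile normalization and 400 (3.52%) and 412 (3.63%) with median-of-ratios scaling. Over all genes tested the median log2 fold change was 0.05 as deposited, 0.02 with quantile normalization and 0.00 with median-of-ratios scaling. The share of lower genes was 39%, 45.8% and 49.4% in the same order, so the excess of higher genes depends on the scaling. The median gene had a log2 fold change of 0.13 in size and an SE of 0.20. A log2 fold change below −1 was found in 118 genes and one above 1 in 38 genes, so the large differences lay mostly on the side of lower expression.

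**Figure D2:**
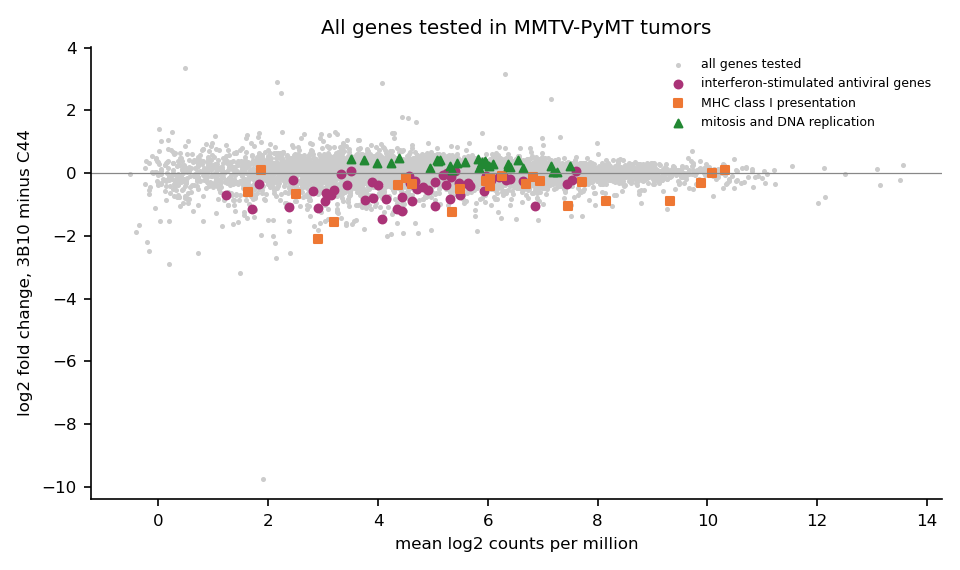
Log2 fold change with 3B10 against mean log2 CPM for the 11361 genes tested in *MMTV-PyMT* tumors (grey). Antiviral interferon-stimulated genes, genes of MHC class I presentation and genes of mitosis and DNA replication are marked in color.

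Among the lower genes with the smallest p whose groups do not overlap, H2-K1, a heavy chain of MHC class I, stood at 9.88, 9.35 and 10.06 log2 CPM in the C44 tumors and at 8.72, 8.75 and 9.17 in the 3B10 tumors, a log2 fold change of −0.88 (SE 0.23). Reads of H2-K1 can be shared with its near-identical neighbours, and the FVB/N haplotype differs from the C57BL/6 reference, so its level is uncertain. For Sp110, which encodes a nuclear body protein, the C44 tumors had 4.31, 4.28 and 4.73 and the 3B10 tumors 3.81, 3.25 and 3.39 (log2 fold change −0.96, SE 0.23). Its relative Sp100 had 4.76, 4.39 and 5.61 in C44 and 3.68, 3.94 and 3.69 in 3B10 tumors (log2 fold change −1.15, SE 0.30; −0.81 without C44 3). In both Sp genes the highest value was that of C44 3, and the 3B10 tumors lay close together in Sp100. Siglec1 encodes the sialic acid lectin of resident macrophages, and its values were 2.12, 2.25 and 2.33 in C44 and 1.20, 0.52 and 0.95 in 3B10 tumors, with a log2 fold change of −1.34 (SE 0.32). Sectm1b, whose product is a secreted and transmembrane protein of epithelium, had 4.96, 5.25 and 6.00 in C44 and 3.61, 4.28 and 2.63 in 3B10 tumors (log2 fold change −1.90, SE 0.45). It shares sequence with Sectm1a, chosen after its values were seen, which stood at 5.90, 6.07 and 6.83 in C44 and 5.14, 5.61 and 5.20 in 3B10 tumors. The pair shows the same order of groups, but reads may be assigned to either gene.

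The lower genes also include secreted factors and a matrix receptor. Csf3 encodes G-CSF, the cytokine that drives the formation and release of neutrophils. It stood at 2.64, 2.13 and 1.74 log2 CPM in the C44 tumors and at 0.10, 1.06 and 0.47 in the 3B10 tumors, a log2 fold change of −1.62 (SE 0.41). Every 3B10 tumor was below every C44 tumor, at a low level throughout. Alkal2 encodes a cytokine that activates the receptor tyrosine kinases ALK and LTK, and had 4.26, 2.23 and 4.49 in C44 and 1.31, 1.40 and 0.65 in 3B10 tumors (log2 fold change −2.54, SE 0.60). Its C44 values were spread over more than 2 log2 units, and the lowest of them, C44 2, was still above every 3B10 tumor. Npy, the gene of neuropeptide Y, had a like order, with 3.93, 2.10 and 3.72 in C44 and 1.79, 0.90 and 0.33 in 3B10 tumors (log2 fold change −2.24, SE 0.58). Plppr4, a lipid phosphatase-related protein of neurons, was lower by a log2 fold change of −1.82 (SE 0.42), and Ddah1, whose enzyme degrades the methylarginines that inhibit nitric oxide synthases, by −1.16 (SE 0.28). The hyaluronan receptor Cd44 was the most even of the group. It stood at 7.10, 7.27 and 7.07 in C44 and at 6.61, 6.52 and 6.57 in 3B10 tumors, a log2 fold change of −0.58 (SE 0.12).

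The genes higher with 3B10 and without overlap have varied functions. Arrdc4, an alpha-arrestin whose transcription follows glucose, had the smallest spread, with 6.15, 6.20 and 6.19 log2 CPM in C44 and 7.03, 6.91 and 7.03 in 3B10 tumors (log2 fold change 0.81, SE 0.12). The related glucose-responsive gene Txnip, chosen after its values were seen, did not separate the groups, with 8.24, 8.32 and 7.99 in C44 and 9.13, 8.20 and 8.59 in 3B10 tumors. Its log2 fold change was 0.46 and became 0.21 without 3B10 1. Lpl, the lipase that releases fatty acids from lipoproteins, had 3.60, 4.23 and 3.34 in C44 and 5.12, 4.48 and 4.97 in 3B10 tumors (log2 fold change 1.13, SE 0.28). Mertk encodes a receptor tyrosine kinase for the uptake of dying cells and had 2.74, 2.62 and 2.27 in C44 and 3.95, 3.32 and 4.34 in 3B10 tumors (log2 fold change 1.32, SE 0.31). Thus 3B10 2 was the closest to the C44 tumors in both Lpl and Mertk. The adenosine deaminase Ada (log2 fold change 0.73), the late endosomal GTPase Rab7b (0.69) and the kinetochore subunit Spc24 (0.62) had narrow groups, and Slc5a5, the iodide transporter of the lactating gland, was higher by a log2 fold change of 1.25 (SE 0.34). The transmembrane serine protease Tmprss4 had 3.51, 3.37 and 3.97 in C44 and 4.89, 4.39 and 5.41 in 3B10 tumors (log2 fold change 1.28, SE 0.29), and Tmprss13 had a log2 fold change of 0.60 (SE 0.15). Magea9, of an X-linked family with near-identical copies and so of uncertain level, had 1.18, 1.63 and −0.71 in C44 and 3.63, 3.56 and 3.69 in 3B10 tumors (log2 fold change 2.92, SE 0.58). All 20 genes of these lists kept their direction in each of 17 alternative settings. For the settings that leave out a tumor this was fixed in advance, because the genes were chosen for groups that do not overlap.

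**Figure D3:**
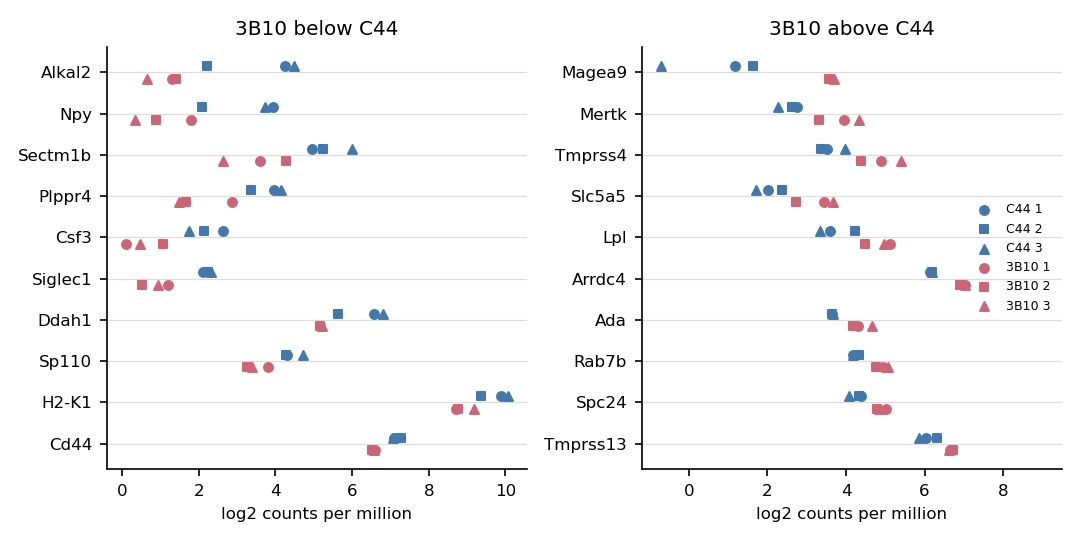
Log2 CPM in each tumor for the 10 genes in each direction with the smallest limma p among genes that average 1 log2 CPM or more and whose groups are separate. Blue marks C44, red marks 3B10, and the symbol gives the tumor number.

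Gene lists by cell type and pathway are described by the number of genes lower or higher and by their median log2 fold change, beside the median of 0.05 over all genes tested. No list was given a test. Among lists with at least 4 genes tested, the largest negative medians belonged to genes of red blood cells (−1.48), interferon-induced GTPases (−0.54), skeletal muscle (−0.52) and antiviral interferon-stimulated genes (−0.38). Markers of adipocytes (0.51) and genes of mitosis and DNA replication (0.31) had the largest positive medians among the same lists. The ranges obtained by leaving out each tumor in turn were wide for blood, fibroblast and muscle genes.

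**Figure D4:**
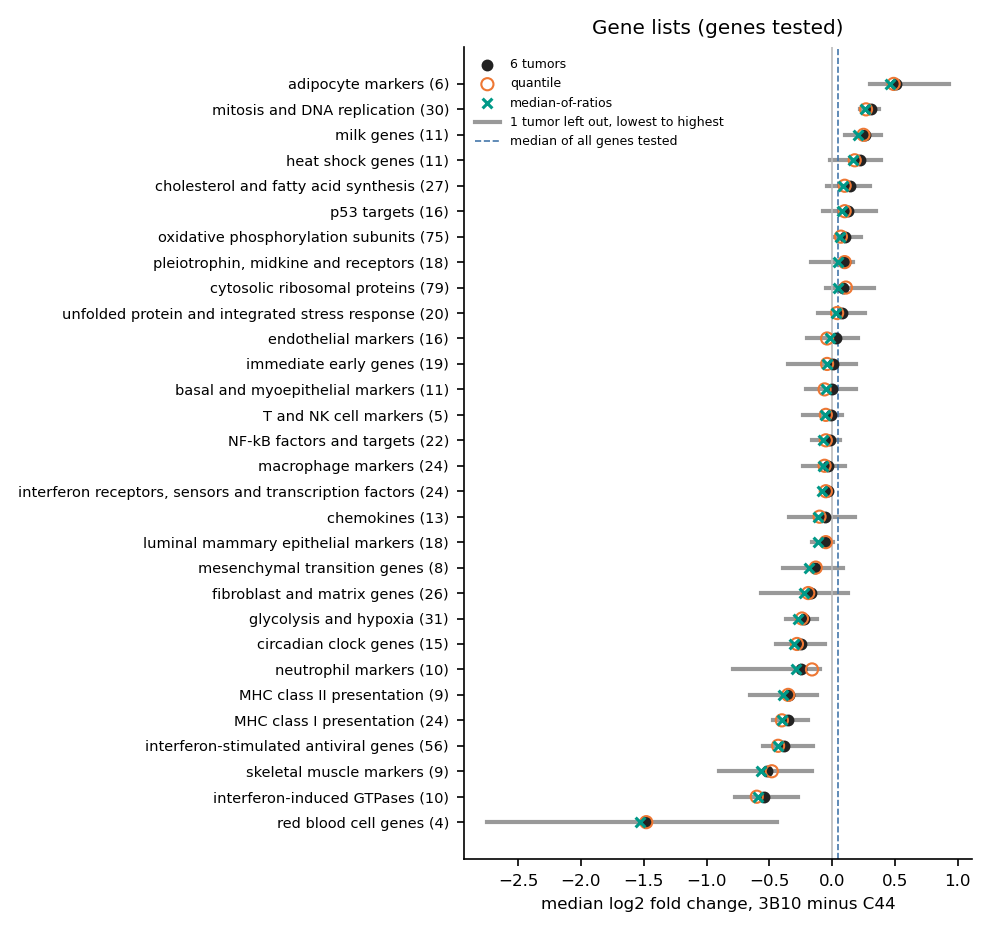
Median log2 fold change with 3B10 of each gene list with at least 4 genes tested; the number of genes tested is in brackets. Black dots are the values as deposited, orange circles and green crosses those with other scaling, and grey bars the range when each tumor is left out in turn.

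Interferon-stimulated genes encode proteins that sense or block viral RNA, such as the IFIT, OAS and viperin families, and many are transcribed through the interferon-stimulated response element. Of 59 antiviral genes in the list, 56 were in the table and tested, and 52 of them were lower with 3B10 (53 with quantile normalization and 53 with median-of-ratios scaling). The groups did not overlap in 9 of the 56, all with 3B10 below C44, where the share over all genes was 2.27%. An unadjusted p under 0.05 was found for 8, against 1.18% of all genes, and an adjusted p under 0.05 for 0. The mean log2 CPM of the list was 4.80, 4.65 and 5.30 in the C44 tumors and 3.90, 4.62 and 4.76 in the 3B10 tumors. Tumor 3B10 1 was the lowest and C44 3 the highest, and the remaining tumors lay within a narrow band where the groups overlap. The median of −0.38 became −0.15 without 3B10 1, when 39 of the genes were lower, and −0.55 without 3B10 3. The summed level ran from 1555 CPM in 3B10 1 to 3385 CPM in C44 3, and Ifitm3 was the most abundant member per length.

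Among the named members, Rsad2 (viperin) had 4.91, 4.22 and 5.29 log2 CPM in C44 and 2.21, 3.63 and 4.18 in 3B10 tumors. The log2 fold change was −1.47 (SE 0.52), and −0.90 without 3B10 1. The apoptosis factor Xaf1 had 4.61, 4.36 and 4.70 in C44 and 3.03, 4.03 and 4.14 in 3B10 tumors (log2 fold change −0.82, and −0.47 without 3B10 1). Neither gene overlapped between groups, and in both the lowest value was that of 3B10 1. Uba7, the enzyme that activates ISG15 for conjugation, had 5.58, 5.80 and 6.14 in C44 and 5.05, 5.62 and 4.76 in 3B10 tumors, with 3B10 2 inside the range of the C44 tumors (log2 fold change −0.70, SE 0.25). Trim25, the most abundant by reads, was nearly level, with 7.41, 7.57 and 7.74 in C44 and 7.52, 7.57 and 7.80 in 3B10 tumors. Several widely used interferon markers, chosen after their values were seen, depend on 3B10 1. Isg15 stood at 5.25, 4.23 and 5.39 in C44 and at 3.13, 4.53 and 5.75 in 3B10 tumors, so that its highest value was in a 3B10 tumor. A log2 fold change of −0.49 was 0.18 without 3B10 1 and −1.13 without 3B10 3. Ifit1 had 5.14, 4.30 and 5.68 in C44 and 2.29, 4.32 and 4.91 in 3B10 tumors, and its log2 fold change of −1.20 was −0.43 without 3B10 1. That of Oas2 was −0.77 and became 0.06 without the same tumor and −1.30 without 3B10 2.

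Promoter windows were compared because the antiviral genes are lower together, and their sequences come from RefSeq on GRCm38.p6, from 250 bases before to 50 bases after the start of the gene. The letters GAAANNGAAA, with N for any base, were searched on both strands as the core of the interferon-stimulated response element. They occur in 3.44% of all 32851 windows and in 2.91% of the 9044 windows of genes tested here. Of the antiviral genes tested, 43 had a window, and 18 of these (41.9%) held the letters, 9 of them at more than 1 place. For interferon-induced GTPases it was 6 of 7 (85.7%), for MHC class I presentation 5 of 19 (26.3%) and for mitosis and DNA replication 1 of 26 (3.85%). The median log2 fold change was −0.36 for the 18 antiviral genes with the letters and −0.37 for the 25 without them, so the letters in these windows do not divide the list. The 4 antiviral genes with the largest statistics and a window are Sp100, Uba7, Rsad2 and Xaf1, and of these only Rsad2 holds a match, on the opposite strand from position −120. Matches are in capitals, with positions counted from 0 at the start. The windows of Gbp2, with a match on the opposite strand from −59, and of Igtp, with a match on the gene's own strand from −34, were added after their values were seen because they hold the letters. A match describes the sequence only.

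Sp100, chr1:85649738-85650037, GRCm38.p6, plus strand: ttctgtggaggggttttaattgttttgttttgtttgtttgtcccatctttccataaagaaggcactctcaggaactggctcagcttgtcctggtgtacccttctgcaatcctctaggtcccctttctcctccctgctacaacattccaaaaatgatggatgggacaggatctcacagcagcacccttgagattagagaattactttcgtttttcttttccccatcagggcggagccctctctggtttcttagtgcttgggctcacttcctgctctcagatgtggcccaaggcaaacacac
Uba7, chr9:107975317-107975616, GRCm38.p6, plus strand: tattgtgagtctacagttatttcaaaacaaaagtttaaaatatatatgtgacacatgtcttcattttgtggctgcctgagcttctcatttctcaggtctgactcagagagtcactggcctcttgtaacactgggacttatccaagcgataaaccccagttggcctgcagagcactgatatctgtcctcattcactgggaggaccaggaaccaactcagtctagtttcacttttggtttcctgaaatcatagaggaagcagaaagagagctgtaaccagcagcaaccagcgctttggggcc
Rsad2, chr12:26456403-26456702, GRCm38.p6, minus strand: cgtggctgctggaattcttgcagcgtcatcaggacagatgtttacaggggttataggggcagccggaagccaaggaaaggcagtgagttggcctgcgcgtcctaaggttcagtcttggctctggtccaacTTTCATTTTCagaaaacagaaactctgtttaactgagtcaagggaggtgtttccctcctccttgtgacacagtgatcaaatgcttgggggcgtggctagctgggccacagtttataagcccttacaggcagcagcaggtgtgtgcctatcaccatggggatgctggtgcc
Xaf1, chr11:72301379-72301678, GRCm38.p6, plus strand: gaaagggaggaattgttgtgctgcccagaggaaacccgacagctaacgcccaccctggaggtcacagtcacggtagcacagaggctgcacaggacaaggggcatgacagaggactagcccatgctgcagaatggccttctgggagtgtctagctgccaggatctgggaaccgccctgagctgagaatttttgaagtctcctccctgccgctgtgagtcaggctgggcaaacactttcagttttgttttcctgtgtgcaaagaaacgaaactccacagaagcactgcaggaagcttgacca
Gbp2, chr3:142620413-142620712, GRCm38.p6, plus strand: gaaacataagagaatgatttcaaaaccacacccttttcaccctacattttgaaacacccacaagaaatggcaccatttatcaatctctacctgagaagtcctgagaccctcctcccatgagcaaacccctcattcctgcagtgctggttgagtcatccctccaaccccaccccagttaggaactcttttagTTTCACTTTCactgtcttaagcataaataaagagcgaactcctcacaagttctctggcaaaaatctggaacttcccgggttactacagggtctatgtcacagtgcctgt
Igtp, chr11:58199306-58199605, GRCm38.p6, plus strand: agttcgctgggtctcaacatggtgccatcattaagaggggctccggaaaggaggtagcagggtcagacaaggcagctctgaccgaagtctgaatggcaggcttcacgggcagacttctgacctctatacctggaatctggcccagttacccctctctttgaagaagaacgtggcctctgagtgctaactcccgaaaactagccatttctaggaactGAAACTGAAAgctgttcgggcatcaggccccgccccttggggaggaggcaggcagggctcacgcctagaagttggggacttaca

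The GTPases of the guanylate-binding and immunity-related families act on vacuoles that hold pathogens and are strongly induced by interferon gamma. All 10 that were tested, of 17 in the list and 13 in the table, were lower with 3B10, with a median of −0.54. It was −0.27 without C44 3, and −0.77 without 3B10 3, and at least 8 stayed lower each time. An unadjusted p under 0.05 was found for 3, against 1.18% of all genes, and 1 did not overlap between groups, against 2.27%. This was Gbp2, which had 5.11, 5.40 and 5.61 log2 CPM in C44 and 4.89, 4.77 and 4.92 in 3B10 tumors (log2 fold change −0.51, SE 0.17). Igtp had 5.11, 4.73 and 5.82 in C44 and 3.74, 4.25 and 5.24 in 3B10 tumors. The log2 fold change was −0.81, with −0.47 without 3B10 1 and −1.22 without 3B10 3. In Gbp9 the values were 4.60, 4.23 and 5.86 in C44 and 2.93, 3.51 and 4.36 in 3B10 tumors (log2 fold change −1.30, SE 0.50), and the difference was −0.82 without C44 3. For both genes 3B10 1 was the lowest and C44 3 the highest tumor, while 3B10 3 lay within the range of the C44 tumors.

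Upstream of these targets, all 24 genes for interferon receptors, sensors and transcription factors were tested. They were nearly even, with 15 lower and 9 higher and a median of −0.03, which was −0.08 with median-of-ratios scaling, when 18 were lower. It ranged from −0.08 without 3B10 3 to −0.00 without 3B10 2. None of the 24 had an unadjusted p under 0.05 and none separated the groups. Irf7, itself a target of interferon, was the lowest of the named factors, with 6.83, 6.32 and 7.32 log2 CPM in C44 and 4.91, 6.81 and 6.31 in 3B10 tumors. The log2 fold change of −0.81 was −0.27 without 3B10 1 and −1.22 without 3B10 2. Irf1 had 6.12, 5.45 and 5.82 in C44 and 5.67, 5.75 and 4.69 in 3B10 tumors, and its log2 fold change of −0.42 was −0.08 without 3B10 3. Irf3 and the receptor kinase Tyk2 were slightly higher, by log2 fold changes of 0.24 (0.13 without 3B10 2) and 0.27.

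MHC class I molecules carry peptides from the cytosol to the cell surface, where CD8+ T cells and NK cells read them. Of 24 genes of this pathway, all tested, 21 were lower with 3B10 (21 with quantile normalization and 22 with median-of-ratios scaling), with a median of −0.35. In 7 the 3B10 tumors lay below the C44 tumors (2.27% of all genes), and 4 had an unadjusted p under 0.05 (1.18% of all genes). The mean of the list was 6.31, 6.04 and 6.46 log2 CPM in the C44 tumors and 5.56, 5.70 and 5.99 in the 3B10 tumors, without overlap. This separation rests on H2-T22 and H2-T23, which were far lower in 3B10 3 than in any other tumor. Without them, a choice made after their values were seen, the mean of the other 22 genes was 6.23, 5.98 and 6.41 in C44 and 5.46, 5.61 and 6.16 in 3B10 tumors, so the groups overlap. Leaving out single tumors gave medians from −0.47 without 3B10 3 to −0.19 without 3B10 1, and at least 20 genes stayed lower each time. Psmb10, a catalytic subunit of the immunoproteasome, had 6.02, 5.67 and 5.58 in C44 and 5.25, 5.26 and 5.21 in 3B10 tumors (log2 fold change −0.52, SE 0.15). The light chain gene B2m, chosen after its values were seen, had 8.35, 8.22 and 9.23 in C44 and 7.20, 7.52 and 8.44 in 3B10 tumors. There 3B10 3 was inside the C44 range, and the log2 fold change of −0.88 was −0.57 without C44 3. The members named for their level had log2 fold changes of 0.09 for Calr, the most abundant gene of the list, and 0.02 for Pdia3, both general chaperones of the endoplasmic reticulum. Without 3B10 3 these were −0.04 and −0.11, and without 3B10 1 that of Calr was 0.25.

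The nonclassical genes H2-Q6 and H2-Q7 had the widest differences. H2-Q7 had 3.76, 3.79 and 4.34 log2 CPM in C44 and 0.95, 1.17 and 3.44 in 3B10 tumors (log2 fold change −2.11, SE 0.64). H2-Q6 stood at 3.78, 3.75 and 4.40 in C44 and at 2.09, 1.69 and 3.46 in 3B10 tumors (log2 fold change −1.56, SE 0.46). In both, tumors 3B10 1 and 3B10 2 were far below the others, whereas 3B10 3 was near the C44 tumors. The Q genes are near-identical copies, so reads cannot be assigned to either with certainty.

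MHC class II genes, expressed by dendritic cells, macrophages and B cells, were lower in 8 of 9 tested genes, with a median of −0.34. None had an unadjusted p under 0.05. Their summed level was 964, 1116 and 606 CPM in the C44 tumors and 802, 648 and 360 CPM in the 3B10 tumors, and the invariant chain Cd74 was the most abundant. Tumor 3B10 3 was the lowest, and the median became −0.12 without it and −0.65 without 3B10 2. Cd74 had 8.87, 9.10 and 8.07 log2 CPM in C44 and 8.39, 8.26 and 7.29 in 3B10 tumors, and its log2 fold change of −0.70 was −0.36 without 3B10 3. In H2-Aa the values were 6.84, 7.08 and 5.99 in C44 and 6.48, 6.18 and 5.14 in 3B10 tumors. The log2 fold change of −0.70 was −0.30 without 3B10 3. The lysosomal protease Ctss, which trims the invariant chain, was lower by a log2 fold change of −0.25, and by −0.12 without the same tumor and −0.47 without 3B10 1. H2-DMb2, whose product loads peptides, was the only higher member, with a log2 fold change of 0.54 that was 0.34 without 3B10 3.

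Genes of mitosis and DNA replication are transcribed in dividing cells. All 30 were tested and all 30 were higher with 3B10, with a median of 0.31. With quantile normalization 0 were lower and with median-of-ratios scaling 1 was, and the medians were 0.27 and 0.26. The 3B10 tumors lay above the C44 tumors in 16 of the 30 genes, where 6.06% of all genes did (14 with either other scaling, where 4.13% and 3.63% did), and 5 had an unadjusted p under 0.05, where 1.52% of all genes did. The mean of the list was 5.39, 5.69 and 5.54 log2 CPM in the C44 tumors and 5.87, 5.79 and 5.85 in the 3B10 tumors. The groups did not overlap in this mean, and the 3B10 tumors were closer to each other than the C44 tumors. Medians with 1 tumor left out ran from 0.22 without C44 1 to 0.37 without C44 2. Summed levels were 1610, 1994 and 1795 CPM in C44 and 2221, 2062 and 2094 CPM in 3B10 tumors.

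The kinase Cdk1, which drives entry into mitosis, had 5.70, 5.87 and 5.71 log2 CPM in C44 and 6.13, 6.19 and 6.13 in 3B10 tumors (log2 fold change 0.39, SE 0.12). Aurka, a kinase of the spindle poles, had 4.70, 4.92 and 5.11 in C44 and 5.23, 5.30 and 5.48 in 3B10 tumors (log2 fold change 0.43, SE 0.16), and Aurkb, its relative at the centromere, had 4.77, 5.08 and 4.81 in C44 and 5.35, 5.17 and 5.32 in 3B10 tumors (log2 fold change 0.40, SE 0.15). For the spindle checkpoint gene Bub1b the log2 fold change was 0.45, and 0.27 without C44 1. In each of these 4 genes the groups are separate but the gap is small. Abundant members were closer to level. Mki67 had 6.99, 7.66 and 7.48 in C44 and 7.82, 7.58 and 7.44 in 3B10 tumors, and its log2 fold change of 0.23 was 0.04 without C44 1 and 0.37 without C44 2. Top2a, the topoisomerase of mitotic chromosomes, had a log2 fold change of 0.04, and −0.04 without C44 3. More dividing cells and more of these transcripts in each dividing cell cannot be told apart in whole tumors, and the same holds for the cell type markers that follow.

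**Figure D5:**
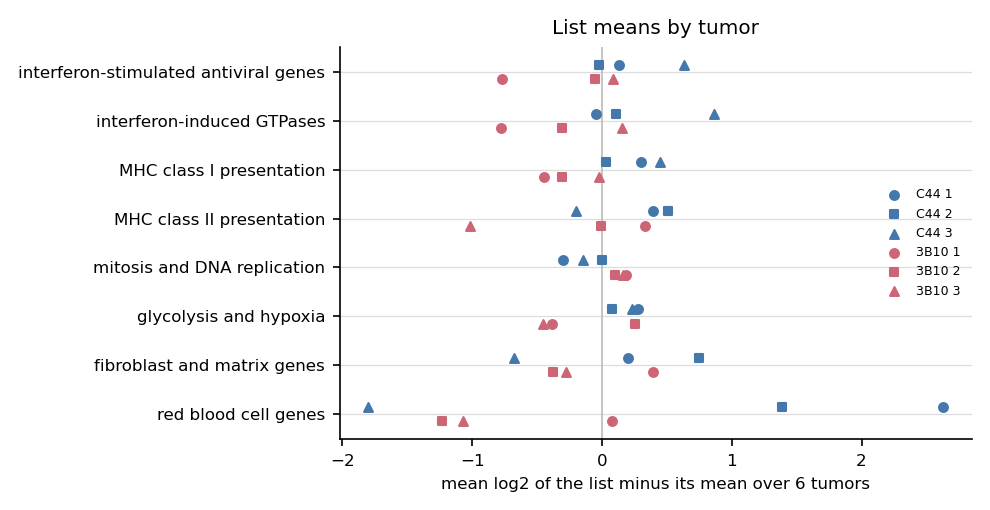
Mean log2 CPM of the tested genes of 8 lists in each tumor, minus the mean over the 6 tumors. Blue marks C44, red marks 3B10, and the symbol gives the tumor number.

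Ptn itself was expressed at a low level, a mean of 2.93 RPKM. It had 2.80, 2.73 and 3.42 log2 CPM in the C44 tumors and 3.28, 2.95 and 4.22 in the 3B10 tumors, so the groups overlap and 3B10 3 was the highest. A log2 fold change of 0.50 (SE 0.37) became 0.13 without 3B10 3 and 0.77 without 3B10 2. Midkine (Mdk) stood at 2.12, 2.72 and 1.31 in C44 and at 2.72, 2.07 and 1.80 in 3B10 tumors. Its log2 fold change of 0.15 was −0.22 without C44 3 and 0.48 without C44 2. Of 20 genes for these ligands and their receptors, 18 were tested, with 8 lower and 10 higher, a median of 0.10 (−0.17 without C44 3 and 0.17 without C44 2), and no unadjusted p under 0.05. The receptor phosphatase Ptprz1 was scarce, at 0.647 RPKM, with 3.54, 3.90 and 2.66 in C44 and 2.52, 3.27 and 2.85 in 3B10 tumors. Its relative Ptprf, at 89.2 RPKM, was level with a log2 fold change of 0.10 (0.03 without 3B10 2 and 0.16 without 3B10 1). Among the syndecans, whose heparan sulfate binds PTN, Sdc4 was the most abundant (150 RPKM) and Sdc3 differed most, with 6.92, 7.26 and 7.97 in C44 and 7.13, 6.77 and 5.56 in 3B10 tumors. That log2 fold change, −0.90, was −0.43 without 3B10 3. In 2 receptors the groups did not overlap, with 3B10 above (6.06% of all genes). Nucleolin (Ncl) had 9.54, 9.72 and 9.58 in C44 and 9.86, 9.73 and 9.91 in 3B10 tumors (log2 fold change 0.22, SE 0.15), and the receptor tyrosine kinase Ltk had 3.68, 4.13 and 3.79 in C44 and 4.28, 4.29 and 4.20 in 3B10 tumors (log2 fold change 0.39, SE 0.19). The integrin chains Itgav (−0.11) and Itgb3 (0.48), the coreceptor Nrp1 (−0.06) and the endocytic receptor Lrp1 (0.19) all had log2 fold changes smaller than their SE, and several turned with single tumors. The value of Nrp1 was 0.07 without 3B10 3 and −0.21 without 3B10 1, and that of Lrp1 was −0.31 without C44 3 and 0.47 without C44 2. For Itgb3 it was 0.05 without C44 3 and 0.91 without 3B10 3, and for Itgav 0.19 without C44 2 and −0.30 without C44 1.

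Markers of leukocytes were present at modest levels. All 24 macrophage genes were tested, 13 lower and 11 higher, with a median of −0.03. This turned to 0.10 without 3B10 3 and was −0.23 without 3B10 1, and the summed level was 1726, 1775 and 1100 CPM in C44 and 1693, 1141 and 1128 CPM in 3B10 tumors. Lyz2, the lysozyme gene, was the most abundant per length, and no marker was at 0 reads. The high-affinity Fc receptor Fcgr1 had 2.93, 2.63 and 2.88 in C44 and 2.55, 2.62 and 2.08 in 3B10 tumors, the only 1 of 24 in which 3B10 lay below C44 throughout (2.27% of all genes), and its log2 fold change of −0.40 was −0.23 without 3B10 3.

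Of 22 neutrophil genes, 17 were in the table and only 10 were tested, with 6 lower and a median of −0.25. The list's summed level, 7648, 7625 and 7012 CPM in C44 and 4804, 4924 and 5750 CPM in 3B10 tumors, came almost wholly from Lcn2 and Ltf, which mammary epithelium also expresses. Lipocalin 2 (Lcn2), an iron carrier of neutrophil granules and of epithelium, had 12.72, 12.38 and 12.49 log2 CPM in C44 and 11.65, 11.98 and 11.66 in 3B10 tumors (log2 fold change −0.77, SE 0.21; −0.53 with quantile normalization). Every 3B10 tumor was below every C44 tumor at this high level, 1800 RPKM. Genes held by neutrophils themselves were at low levels. The heat map genes Clec4d, with 0.72, 1.79 and −0.98 in C44 and −0.63, −0.81 and −0.50 in 3B10 tumors, and Ccl5, with 1.15, −0.31 and 0.32 in C44 and −0.17, −0.16 and −0.94 in 3B10 tumors, were below the filter and not tested. Of the other heat map genes, S100a9, a calcium-binding protein of neutrophil cytosol, had 2.17, 2.17 and −2.91 in C44 and 0.02, 0.73 and 0.19 in 3B10 tumors, and its log2 fold change of −0.17 was −1.86 without C44 3 and 0.68 without C44 1. For the retinol dehydrogenase Dhrs9 it was −0.78, with 0.07 without 3B10 3 and −1.43 without 3B10 1. The genes for Cxcl17, Cxcl5 and Cxcr2 were not analysed here. Il1b had 2.54, 2.41 and 0.92 in C44 and 1.35, 1.06 and 1.75 in 3B10 tumors, and its log2 fold change of −0.57 was −1.09 without C44 3 and −0.28 without C44 1. The median of the list was −0.79 without C44 3 and −0.10 without 3B10 3.

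Lymphocytes left few reads. Of 24 T and NK cell genes, 13 were in the table and 5 were tested, with a summed level of 34.4, 34.2 and 24 CPM in C44 and 35.7, 24.2 and 30.2 CPM in 3B10 tumors. The median of the 5 was −0.01, from −0.23 without 3B10 1 to 0.08 without 3B10 2, and Cd8a stood at or below 0.81 log2 CPM in every tumor. Thy1, the most abundant, is also a gene of fibroblasts. Ighm and Igkc were the only B cell genes in the table and had a median of −0.70, with −1.12 without C44 3 and −0.40 without C44 2. Igkc had 3.14, 4.33 and 0.92 in C44 and 2.15, 1.54 and 1.85 in 3B10 tumors. For this kappa chain a log2 fold change of −0.95 was −0.19 without C44 2 and −1.89 without C44 3.

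Stromal and vascular genes varied with single tumors more than with the antibody. Of 26 fibroblast and matrix genes tested, of 27 in the list, 20 were lower (23 with quantile normalization and 24 with median-of-ratios scaling) with a median of −0.17. It was −0.57 without C44 3 and 0.13 without C44 2, and the fewest lower with 1 tumor left out was 5. Summed levels were 4654, 6846 and 2547 CPM in C44 and 4764, 3410 and 3508 CPM in 3B10 tumors, and Sparc was the most abundant per length. The collagen gene Col1a1 had 9.81, 10.28 and 8.78 log2 CPM in C44 and 9.20, 9.35 and 9.46 in 3B10 tumors, and its log2 fold change of −0.29 was 0.04 without C44 2 and −0.71 without C44 3. Fbln2, an elastic fiber protein, was the only 1 of 26 without overlap (2.27% of all genes lay below), with 7.09, 7.26 and 6.83 in C44 and 6.73, 6.41 and 5.93 in 3B10 tumors (log2 fold change −0.70, SE 0.22). In the mesenchymal transition list, 6 of 8 were lower with a median of −0.14, which was 0.09 without C44 2 and −0.39 without C44 3. Tgfb1 stood out there with 6.06, 6.02 and 5.79 in C44 and 5.44, 5.67 and 5.29 in 3B10 tumors (log2 fold change −0.49, SE 0.15). Endothelial genes, 16 of 20 tested, had a median of 0.03, with 7 lower as deposited but 10 with either other scaling. The median ranged from −0.20 without C44 3 to 0.21 without 3B10 3, and Plvap, a protein of vessel fenestrae, was the most abundant.

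Adipocyte markers were higher in all 6 tested genes, of 19 in the list, with a median of 0.51 (0.93 without C44 2 and 0.30 without C44 3). The defining genes Adipoq and Plin1 are not in the table, and 3 of the 6 lay above without overlap (6.06% of all genes). Cfd (adipsin) rested on tumor 3B10 1, with −2.45, −1.57 and 0.44 log2 CPM in C44 and 5.08, 0.90 and 0.53 in 3B10 tumors. The log2 fold change of 3.37 was 1.91 without that tumor. Lipe, the hormone-sensitive lipase, had 3.93, 4.06 and 3.73 in C44 and 4.55, 4.16 and 4.56 in 3B10 tumors (log2 fold change 0.52, SE 0.20). The list summed to 220, 220 and 167 CPM in C44 and 286, 262 and 208 CPM in 3B10 tumors, with Pnpla2 the most abundant.

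Skeletal muscle genes were scarce. Of 22, 11 were in the table and 9 were tested, 8 of them lower with a median of −0.52, and the list summed to 64.8, 35.2 and 28.3 CPM in C44 and 30.9, 30.9 and 22.6 CPM in 3B10 tumors. The median was −0.16 without C44 1 and −0.90 without C44 3. Mb (myoglobin) was the most abundant member and Tnnc2, a defining troponin chosen after its values were seen, was at 0 reads in all 6 tumors. Genes of red blood cells had the largest range of any list. All 4 tested were lower with a median of −1.48, and their summed levels were 1691, 681 and 57.2 CPM in C44 and 270, 99.1 and 111 CPM in 3B10 tumors. C44 1 and C44 2 were high and C44 3 was the lowest of all 6, so the groups overlap. The median was −0.44 without C44 1 and −2.75 without C44 3. Hba-a1 had 9.80, 8.51 and 4.71 log2 CPM in C44 and 7.0, 5.71 and 5.80 in 3B10 tumors. Globin genes have near-identical copies, so the level of each is uncertain.

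Basal and milk genes varied from tumor to tumor within both groups. Basal genes, 11 of 16 tested, had a median of 0.00 (5 lower, and 6 with either other scaling), from −0.21 without 3B10 1 to 0.19 without C44 2. The basal keratin Krt5 had 4.89, 6.39 and 4.51 log2 CPM in C44 and 7.01, 6.53 and 6.08 in 3B10 tumors (log2 fold change 1.28, SE 0.48), with C44 2 inside the 3B10 range. Its partner Krt14 had 6.34, 8.24 and 4.75 in C44 and 7.15, 6.74 and 7.45 in 3B10 tumors, and its log2 fold change of 0.68 was −0.17 without C44 3 and 1.57 without C44 2. Of 11 milk genes tested, 8 were higher, with a median of 0.26 (0.10 without C44 3). The beta casein gene Csn2 had 3.56, 6.66 and 3.96 in C44 and 8.25, 5.02 and 10.44 in 3B10 tumors, and its log2 fold change of 3.18 was 1.91 without 3B10 3. In Csn1s1 the groups just separated, with 5.43, 7.52 and 4.96 in C44 and 7.90, 7.62 and 9.52 in 3B10 tumors (log2 fold change 2.37, SE 0.74; 1.79 without 3B10 3). Butyrophilin (Btn1a1), of the milk fat globule, had 7.16, 5.86 and 6.25 in C44 and 7.21, 7.11 and 8.33 in 3B10 tumors (log2 fold change 1.13, SE 0.42; 0.74 without 3B10 3). In all 3 the highest value was that of 3B10 3. The summed level of milk genes, between 10640 CPM in 3B10 1 and 18946 CPM in C44 3, was highest where Csn3 was. The only member tested of the skin and hair list, Sbsn, had a log2 fold change of 0.74, and the only tested gene of the hormone-responsive list, Areg, had 0.73. Both overlapped between groups, and the value of Sbsn was 0.27 without 3B10 1 and 1.18 without 3B10 2, and that of Areg was 0.21 without C44 2 and 1.28 without C44 1.

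Genes of glycolysis and hypoxia are targets of HIF1 and serve the breakdown of glucose. Of 31, all tested, 28 were lower with 3B10 (29 with quantile normalization and 30 with median-of-ratios scaling), with a median of −0.22. An unadjusted p under 0.05 was found for 4 (1.18% of all genes), and 3 lay below without overlap (2.27% of all genes). The median was −0.12 without 3B10 1 and −0.37 without 3B10 2. Pfkfb3, which makes the activator of phosphofructokinase, had 4.89, 5.13 and 5.68 log2 CPM in C44 and 4.59, 4.58 and 4.31 in 3B10 tumors (log2 fold change −0.74, SE 0.22). The oxygen-sensing hydroxylase Egln3 had 7.97, 7.67 and 8.21 in C44 and 6.70, 7.66 and 7.24 in 3B10 tumors (log2 fold change −0.75, SE 0.26). Aldoa, the muscle-type aldolase, stood at 10.49, 10.31 and 10.57 in C44 and at 9.81, 10.21 and 9.21 in 3B10 tumors, a log2 fold change of −0.72 that was −0.45 without 3B10 3. In Aldoa and Egln3 the tumor 3B10 2 was at the edge of the C44 tumors, and by the mean of the list, 7.13 against 7.15, 6.95 and 7.11 in C44, it lay among them. Adrenomedullin (Adm) also had 3B10 2 inside the C44 range, with 3.13, 2.89 and 3.45 in C44 and 1.60, 2.96 and 0.26 in 3B10 tumors. This log2 fold change of −1.54 was −0.87 without 3B10 3. Ldha, the most abundant member, had a log2 fold change of −0.11, with −0.40 without 3B10 2 and 0.07 without 3B10 3.

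Other pathways followed 3B10 3. The mean of 16 p53 targets was 5.82, 5.42 and 5.30 log2 CPM in C44 and 5.21, 5.27 and 6.40 in 3B10 tumors, and their median of 0.13 was −0.07 without 3B10 3 and 0.35 without 3B10 1. Bax, which permeabilizes mitochondria, had 6.58, 5.66 and 5.46 in C44 and 5.75, 5.92 and 7.44 in 3B10 tumors, and its log2 fold change of 0.47 was −0.06 without 3B10 3 and 0.81 without C44 1. Ccng1 had 7.32, 6.90 and 7.33 in C44 and 6.64, 6.75 and 8.56 in 3B10 tumors. The cell cycle inhibitor Cdkn1a, chosen after its values were seen, had 7.64, 5.08 and 6.04 in C44 and 4.34, 5.31 and 8.52 in 3B10 tumors, and its log2 fold change of −0.19 was −1.43 without 3B10 3 and 0.66 without 3B10 1. So 3B10 3 was high in this pathway, followed by C44 1, and 3B10 1 was low. Heat shock genes, 11 tested, had a median of 0.22, with −0.02 without 3B10 3 and 0.39 without 3B10 1. Hspd1, the mitochondrial chaperonin, had 8.52, 8.51 and 8.50 in C44 and 8.58, 8.68 and 9.32 in 3B10 tumors, and its log2 fold change of 0.35 was 0.12 without 3B10 3. The small chaperone Hspb1 went the other way without overlap, with 7.46, 7.23 and 6.93 in C44 and 6.29, 6.75 and 6.70 in 3B10 tumors (log2 fold change −0.62, SE 0.19).

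Clock genes were lower in 12 of 15, with a median of −0.25 that was −0.06 without 3B10 3 and −0.45 without C44 1; the labels give no hour of harvest. Per2, a repressor of the clock, had 5.74, 6.61 and 5.79 log2 CPM in C44 and 5.41, 5.97 and 3.89 in 3B10 tumors, and its log2 fold change of −0.96 was −0.36 without 3B10 3. The repressor Cry1 was lower more evenly, with 5.10, 5.22 and 5.07 in C44 and 4.76, 4.52 and 4.81 in 3B10 tumors (log2 fold change −0.43, SE 0.15). Genes of the unfolded protein response (20 tested) had a median of 0.08, with −0.11 without 3B10 3 and 0.26 without 3B10 1. Those of cholesterol and fatty acid synthesis (27 tested, 19 higher) had 0.14, with −0.04 without 3B10 3 and 0.30 without C44 3. Cytosolic ribosomal proteins (79 tested, 62 higher) had a median of 0.09, with 0.33 without C44 1 and −0.05 without C44 3, and respiratory chain subunits (75 tested, 61 higher) had 0.10, with 0.23 without C44 1 and 0.02 without C44 2.

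Of 22 tested genes among NF-kB factors and targets, 12 were lower as deposited and 14 with either other scaling, and the median was −0.02, from −0.16 without C44 3 to 0.06 without C44 2. In 2 members 3B10 lay below C44 without overlap (2.27% of all genes). Nfkb1, the p50 precursor, had 7.04, 7.05 and 7.01 log2 CPM in C44 and 6.74, 6.93 and 6.90 in 3B10 tumors (log2 fold change −0.17). Ptgs2, the inducible cyclooxygenase, had a larger difference, with 3.55, 4.82 and 3.00 log2 CPM in C44 and 2.01, 2.89 and 1.94 in 3B10 tumors (log2 fold change −1.51, SE 0.49). Its value was −1.0 without C44 2, the highest tumor. Immediate early genes had 9 of 19 lower as deposited, 12 with quantile normalization and 11 with median-of-ratios scaling, with a median of 0.01, from −0.35 without C44 3 to 0.19 without C44 2. Ier3, an early response gene of epithelium, had 7.44, 7.88 and 7.09 in C44 and 7.01, 6.96 and 7.03 in 3B10 tumors. It was the only 1 of 19 without overlap (2.27% of all genes lay below), and its log2 fold change of −0.47 was −0.26 without C44 2. Of 33 chemokine genes, 12 were in the table but below the filter, 13 were tested and 8 were lower, with a median of −0.06, from −0.34 without C44 3 to 0.18 without C44 2. Cxcl1, a chemokine that draws neutrophils, had 3.15, 1.97 and 2.10 in C44 and 1.66, 1.48 and 2.22 in 3B10 tumors, and its log2 fold change of −0.62 was −0.25 without C44 1.

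In 556 of all genes tested (4.89%) the highest and lowest of the 6 tumors were more than 2 log2 units apart, which includes genes whose groups are separate. Of genes with a mean of at least 3 log2 CPM, the 10 with the largest spread within groups were taken. They include Csn1s2a, Csn2, Hba-a1, Hbb-bt and H2-Eb1, and the other 5 follow. Fcgbp, a mucus-associated Fc-binding protein, had 9.97, 10.91 and 8.64 in C44 and 8.76, 11.42 and 5.88 in 3B10 tumors, and Hepacam2 followed it, with 4.30, 4.71 and 2.22 in C44 and 2.57, 5.56 and 0.70 in 3B10 tumors. Both were highest in 3B10 2 and lowest in 3B10 3. The homeobox factor Meis1 was high in 3 tumors and near 0 in C44 2 and 3B10 2, with 5.67, 0.35 and 4.57 in C44 and 2.58, 0.00 and 5.0 in 3B10 tumors. Cyp1b1, a target of the aryl hydrocarbon receptor, stood at 6.57 in C44 2 and at 3.96 or less in each other tumor. Thbs4, a matrix protein, was low in C44 3 alone, at 1.91 against 4.38 to 6.68 elsewhere. For Fcgbp, Hepacam2, Meis1, Cyp1b1 and Thbs4 the SE of the log2 fold change was larger than the fold change.

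The fold changes were set beside those of the 4T1 tumors treated with the same antibodies, also at 15 mg/kg with 2 doses per week. By the authors' methods, these grew from a cell line injected into the mammary fat pad of BALB/c mice, and treatment began once tumors were palpable. The models thus differ in strain, in origin of the tumor and in start of treatment. The 4T1 values are on another scale, so only fold changes are compared. For 10890 genes tested in both models, the difference between the effects of 3B10 was tested by the limma interaction term. An adjusted p under 0.05 was found for 0 (0%) and an unadjusted p under 0.05 for 252 (2.31%). The latter too is fewer than this threshold passes on average when no gene differs. Over all genes tested in 4T1 tumors the median log2 fold change was 0.01, and 48.4% were lower. Antiviral genes were lower in 28 of 56 in 4T1 tumors with a median of 0.00. The difference between the models was negative for 49 of the 56, with a median of −0.40, and 3 had an unadjusted p under 0.05. It includes tumor 3B10 1, without which the *MMTV-PyMT* median of these genes was −0.15, with 39 lower. For the GTPases, 13 of 13 tested were lower in 4T1 tumors, with a median of −0.44, and the median difference was −0.23. Genes of mitosis and DNA replication were lower in 0 of 30 in 4T1 tumors, with a median of 0.40, so they were higher with 3B10 in both models. Cdk1 had log2 fold changes of 0.39 in *MMTV-PyMT* and 0.44 in 4T1 tumors, and Spc24 had 0.62 and 0.77. Skeletal muscle genes went opposite ways, with a median of −0.52 in *MMTV-PyMT* and 2.43 in 4T1 tumors. Their median difference was −2.54 over 8 genes, and 7 of these had an unadjusted p under 0.05. Luminal genes, lower in 1 of 15 tested in 4T1 tumors with a median of 0.40, had a median difference of −0.51, and 5 had an unadjusted p under 0.05 for it. Macrophage genes, near even in *MMTV-PyMT* tumors, were lower in 22 of 24 in 4T1 tumors with a median of −0.45, and 0 of them had an unadjusted p under 0.05 for the difference. Of single genes, Cd44 had −0.58 and −0.03, H2-K1 −0.88 and −0.02, Lcn2 −0.77 and −1.22, and Siglec1 −1.34 and −0.91 as log2 fold changes in *MMTV-PyMT* and 4T1 tumors. None of these differences passed the adjusted test.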

How the data were processed

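RNA from 6 *MMTV-PyMT* tumors, and from 6 4T1 tumors for comparison, was analysed. According to the submitters' processing notes, the authors aligned reads to mm10 (GRCm38) with HISAT2, counted them with featureCounts and used limma and edgeR. The authors deposited log2 values for 12091 genes. In the *MMTV-PyMT* samples 100% of the low values came out, within 0.05, as whole reads under log2 CPM with an offset of 0.5 reads, so reads were recovered, with 19.18, 19.25 and 18.76 M in C44 and 16.29, 18.44 and 16.26 M in 3B10 tumors. The step that made these values is not stated. The 4T1 values had no such steps, and their depth is unknown.

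Log2 values were used as deposited. For testing, a gene had to exceed the lowest value of its sample by 1 or more, off the log, in 3 or more of 6 tumors. Groups were compared with limma 3.58.1 in R 4.3.3 (lmFit, eBayes with trend and robust, two-sided, Benjamini-Hochberg adjustment over all genes tested), and the models by an interaction term over 12 tumors. The fit was tested on simulated data. Alternatives were other filters, pseudocounts of 1 and 0.1, quantile and median-of-ratios scaling, voom weights and plain eBayes. Others were a block for the tumor number, a block for the spelling of the sample names, a fit over 18 samples, and each tumor left out. Gene lengths came from GENCODE M21.

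The members and the 33 gene lists were chosen with earlier results of these data known, and lists were given counts and medians only. Genes named are the ligands and receptors of PTN, up to 4 members of each list by statistic and 2 by level, 10 genes in each direction without overlap, 10 by spread within groups, and the study's neutrophil heat map genes; any other is said to be chosen after its values were seen.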

Additional observations from a re-analysis of the deposited data

How the results depend on the processing

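In every alternative 0 genes had an adjusted p under 0.05 between 3B10 and C44, including with each tumor left out. At an unadjusted p under 0.05, the number of lower genes was 134 as deposited, 253 in the fit over 18 samples, and from 103 to 232 with 1 tumor left out. The number of higher genes was 173 as deposited, 105 with median-of-ratios scaling, 583 in the fit over 18 samples, and from 115 to 252 with 1 tumor left out. The cause was not tested. The medians of the antiviral and GTPase lists kept their direction throughout. That of interferon receptors, sensors and factors was −0.03 as deposited, −0.08 with median-of-ratios scaling, and from −0.08 to −0.00 with 1 tumor left out. For the difference between the models, 0 genes passed, and from 0 to 1 with 1 tumor left out: Tbx15, chosen after its values were seen, had a difference of −3.51 (adjusted p = 0.032 by limma) without 3B10 2, and −2.16 (adjusted p = 1 by limma) with it. Of 193 named genes tested, 140 kept their direction in all 17 alternatives.

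Tumors of both groups carry the numbers 1 to 3. Deviations of same-numbered tumors from their group means correlated with −0.036, 0.132 and 0.208 across genes, so the numbers were not taken as pairs. With a block for the number, 0 genes had an adjusted p under 0.05, 182 were lower and 168 higher at an unadjusted p under 0.05, and the smallest adjusted p was 0.093 by limma. With a block for the spelling of the sample names, 115 were lower and 138 higher at an unadjusted p under 0.05.

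With 3 tumors per group and a median SE of 0.20, small differences were out of reach over 11361 genes. Large ones did not pass either, such as that of Alkal2, with a log2 fold change of −2.54 (SE 0.60) and separate groups. At depths of 16.26 to 19.25 M reads, lymphocyte and neutrophil genes rest on few reads. Position of the tumor and litter are not in the labels; the authors state that mice were randomized and, at endpoint, sacrificed at the same time. Genes absent from the table were not analysed here.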

Other observations

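Some genes in and beside the H2 complex on chromosome 17, chosen after their values were seen, set tumor 3B10 3 apart from the other 5. Among 93 genes tested between Rps18 and Gabbr1, 4 lay more than 2 log2 units from the median of the other tumors in 3B10 3 while those others stayed within 2 units of each other, and 0 did so in any other tumor. Over all 11361 genes this held for 74 genes (0.651%) in 3B10 3. The class II gene H2-Eb1 had 5.99, 6.31 and 5.36 log2 CPM in the C44 tumors and 5.79, 5.41 and 1.00 in the 3B10 tumors. H2-T23, a nonclassical class I gene whose product is a ligand of NK receptors, had 8.35, 7.72 and 7.91 in C44 and 7.86, 8.09 and 4.88 in 3B10 tumors, and H2-T22 had 6.05, 5.66 and 6.19 in C44 and 5.35, 5.46 and 3.33 in 3B10 tumors. The ribosomal protein gene Rps18 next to the complex had 9.34, 8.61 and 8.42 in C44 and 8.98, 8.66 and 5.59 in 3B10 tumors.

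Other genes of the stretch differed in direction or in tumor. The count above cannot include a gene in which 2 tumors differ together. H2-Q7 is such a gene, with 0.95 and 1.17 log2 CPM in 3B10 1 and 3B10 2 and 3.44 in 3B10 3. H2-Q6 had 2.09 and 1.69 against 3.46 in the same order. H2-Aa (5.14) and H2-Ab1 (5.57), beside H2-Eb1, and C4b (6.09) were also lowest in 3B10 3, by less than 2 log2 units from the median of the others. H2-D1 was highest in 3B10 3, at 10.55 log2 CPM against 9.30 and 9.33 in the other 3B10 tumors, and Tap1 stood at 6.30 there against 5.52 and 5.73. Without 3B10 3 the log2 fold change of H2-T23 was −0.02 in place of −1.05, that of Rps18 0.03 in place of −1.05, and that of H2-Eb1 −0.28 in place of −1.82. H2-T22 had −0.56 in place of −1.25. All 6 tumors are labelled FVB/N. Whether the animal of 3B10 3, or those of 3B10 1 and 3B10 2, carry another H2 haplotype was not tested. This bears on their class I and class II values. Whether these genes differ in transcription was not tested either.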
